A study of Bos taurus with 6 samples.

Results

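Matrix proteoglycans are proteins of the extracellular matrix that carry sulfated sugar chains. The 10 genes described here were chosen by symbol and not by their values, though with earlier results of these data known. All 10 are among the 25444 genes of the mRNA count table. They comprise 8 genes of small leucine-rich proteoglycans (SLRPs), which are DCN, BGN, ASPN, LUM, FMOD, PRELP, OMD and OGN, and the 2 large proteoglycan genes VCAN and ACAN. The question was how their transcripts differed between intramuscular fat (IMF) of steers and bulls of the Chinese Qinchuan breed, killed at 24 months of age. The steers had been castrated by surgery at 6 months, the bulls were intact males, and both groups received the same diet. The fat was dissected from the sternomandibularis, a neck muscle, and according to the paper all animals had the same sire. RNA of 6 animals went into each mRNA library in equal amounts by the series description, whereas the sample labels list 3 animals a group.

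The core of an SLRP is a curved protein of leucine-rich repeats that binds the surface of collagen fibrils and regulates how they form. Decorin and biglycan carry chondroitin or dermatan sulfate chains, whereas fibromodulin, lumican and related members can carry keratan sulfate. Versican and aggrecan are far larger and bind hyaluronan, a sugar polymer, together with link proteins, and this holds water in the matrix. In muscle and fat these proteins belong to the connective tissue that surrounds fibres, fat cells and vessels.

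Each group was 1 library, with 12677375 counts over all genes in steers and 9868415 in bulls. There is therefore no spread between replicates, and every test below compares these 2 pooled libraries and not the conditions. The steers counts were divided by a size factor of 1.04 and the bulls counts by one of 0.959, so that the middle gene has a ratio of 1. Intervals are at 95% and are Clopper-Pearson for single genes and shares, and Woolf or conditional exact for ratios of 2 genes. They hold counting error alone, and reads can be copies of 1 molecule. A gene was called when its adjusted p in an exact binomial test was under 0.05 and its fold change over 2. The log2 of the fold change, steers over bulls, is given as log2FC. In bulk tissue, fewer cells of a type and less RNA per cell cannot be told apart.

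Of the 10 proteoglycan genes, 6 were 1.37-fold to 1.96-fold higher in steers (VCAN, LUM, ACAN, BGN, FMOD and PRELP), DCN and OMD were near a ratio of 1, and ASPN and OGN were lower. None was called, with 0 upregulated and 0 downregulated in steers by the exact binomial test. Of all 17752 genes with a count, 4.37% were called upregulated and 8.13% downregulated, 12.5% in all. By fold change alone 0 of the 10 passed in either direction, compared with 29.5% of all genes (13.1% higher and 16.4% lower in steers). Without the threshold on fold change, 9 of the 10 passed the exact binomial test by their adjusted p, 7 higher and 2 lower in steers. The same 9 genes had an unadjusted p under 0.05. By adjusted p alone 38.2% of all genes passed (19.9% higher and 18.3% lower), as did 73.5% of the 3186 genes with a mean scaled count of at least 500, the range in which 9 of the 10 lie. At such depth small differences pass, so the size of each difference is the informative value. Of those 3186 genes, 3.55% were called upregulated and 4.17% downregulated, so 0 calls among 10 genes is near the share at this depth. The median log2FC of the 10 genes was 0.52, compared with 0.01 over all genes tested and 0.14 over those 3186 genes (quartiles -0.14 and 0.38).

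Among class I SLRPs, BGN and DCN had similar counts in bulls and differed in steers. BGN encodes biglycan, and it had 132710 counts in steers against 71059 in bulls. After scaling it was 1.72-fold higher in steers, with an interval of 1.70 to 1.73. DCN encodes decorin, its nearest relative in function, and it had 76081 counts in steers against 68158 in bulls. Its ratio was 1.03 after scaling, with an interval of 1.02 to 1.04, and the log2FC of 0.04 turned to -0.20 with scaling to total counts. So the direction of DCN is not settled by these data. ASPN encodes asporin, the class I member with a run of aspartate residues near its start. It had 2150 counts in steers against 2356 in bulls, a log2FC of -0.25 (interval -0.34 to -0.17).

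In class II, the 3 genes with many counts were all higher in steers. FMOD encodes fibromodulin, which binds collagen fibrils and is abundant in tendon, and it had 169037 counts in steers against 102586 in bulls. FMOD held rank 6 by count among all genes in steers and rank 7 in bulls, and took 1.33% and 1.04% of all counts. It was 1.51-fold higher in steers (log2FC 0.60, interval 0.59 to 0.61). LUM encodes lumican, a keratan sulfate proteoglycan, and it had 14023 counts in steers against 6692 in bulls. This difference of 1.93-fold (interval 1.87 to 1.98) lay just under the threshold of 2. PRELP, whose product links basement membranes to the connective tissue, had 29532 and 19861 counts and was 1.37-fold higher in steers (interval 1.34 to 1.39).

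The remaining SLRPs had fewer counts. OMD encodes osteomodulin, a keratan sulfate proteoglycan known from bone, and had 15 counts in each library. Its log2FC of -0.12 has an interval from -1.26 to 1.01, so a 2-fold difference could not have been seen at this depth. OGN encodes osteoglycin, the class III member, with 2144 counts in steers against 2660 in bulls. It was the lowest of the 10 by log2FC, at -0.43 (interval -0.52 to -0.35).

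Both large proteoglycan genes were higher in steers. VCAN encodes versican, which soft tissues and also monocytes make, and had 8303 counts in steers against 3890 in bulls. Its log2FC of 0.97 was the largest of the 10, and the interval of 0.92 to 1.03 spans the threshold of 1. ACAN encodes aggrecan, the main proteoglycan of cartilage. It had 1556 counts in steers against 825 in bulls, a log2FC of 0.79 (interval 0.67 to 0.92).

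**Figure D1:**
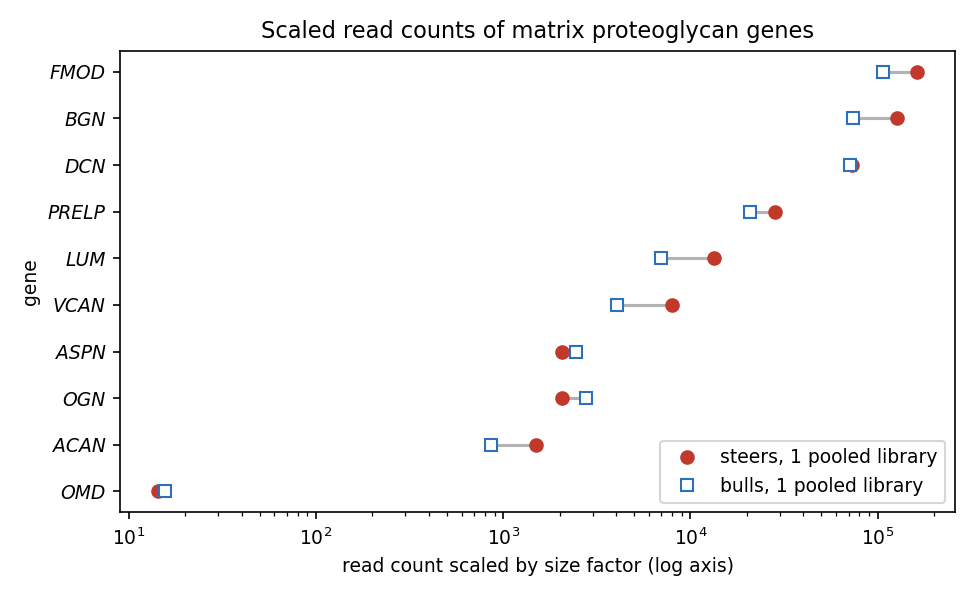
Read counts of the 10 proteoglycan genes divided by the size factor of each library (horizontal, log axis), with a filled circle for the steers library and an open square for the bulls library. The circle lies to the right of the square for VCAN, LUM, ACAN, BGN, FMOD and PRELP, nearly on it for DCN and OMD, and to the left for ASPN and OGN; counts of different genes also depend on transcript length.

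The scaling of the libraries set how large these differences were. Total counts gave a median log2FC over all genes of -0.23, compared with 0.01 for size factors, and so lowered every value by the same amount. Under the 4 other scalings based on the whole table, VCAN ranged from 0.73 to 0.99, LUM from 0.71 to 0.96 and BGN from 0.54 to 0.79. FMOD ranged from 0.36 to 0.61, ACAN from 0.55 to 0.81 and PRELP from 0.21 to 0.47. These 6 genes stayed above 0 and ASPN, OGN and OMD below 0 in all 4, whereas DCN ranged from -0.20 to 0.05. With 15 counts in each library, the direction of OMD is not settled. If pools of animals are assumed to vary with a biological coefficient of variation of 0.1, 5 genes keep an adjusted p under 0.05 in an edgeR exact test, and at 0.2 the number is 0, with VCAN lowest at an adjusted p of 0.19 in the edgeR exact test. The true variation between such pools was not measured.

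**Figure D2:**
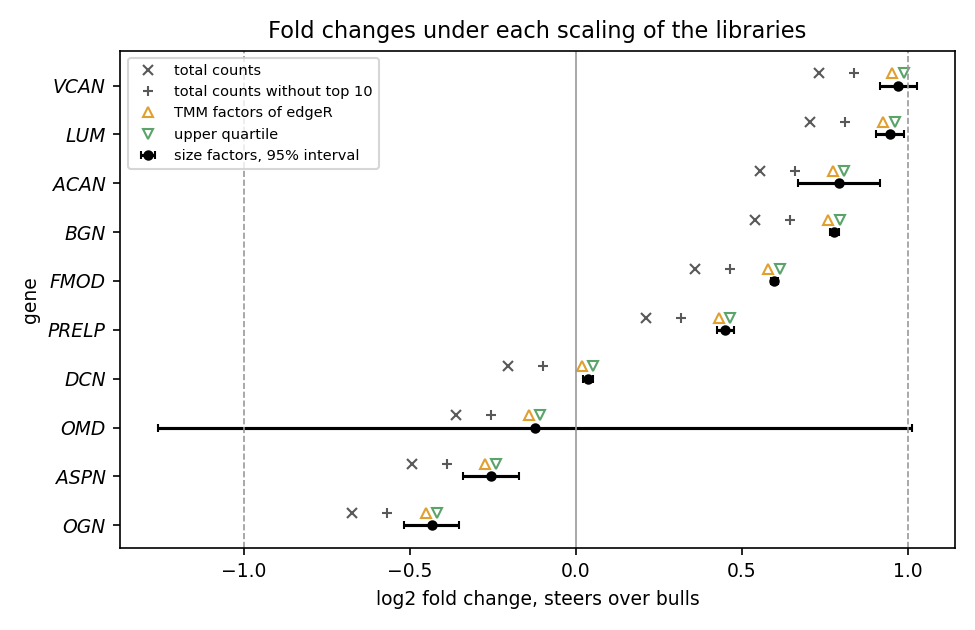
Log2FC of each gene, steers over bulls (horizontal), with size factors (black circles, bars for the 95% counting interval) and with 4 other scalings (symbols above). Dashed lines mark the threshold of 1 in either direction. A scaling moves all genes by the same amount, so their order cannot change. Only the value of DCN, from -0.20 to 0.05, crosses 0.

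The sum over the 10 genes was 435551 counts in steers against 278102 in bulls, or 3.44% and 2.82% of each library. FMOD, BGN and DCN together held 86.7% of these counts in steers and 86.9% in bulls. Within the sum, DCN took 17.5% in steers and 24.5% in bulls, with exact binomial intervals of 17.4% to 17.6% and 24.3% to 24.7%. BGN took 30.5% (30.3% to 30.6%) in steers and 25.6% (25.4% to 25.7%) in bulls, and FMOD 38.8% and 36.9%. OGN went from 0.956% in bulls to 0.492% in steers, and ASPN from 0.847% to 0.494%. The make-up therefore differed mainly in that decorin counts were a smaller part and biglycan counts a larger part in steers.

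**Figure D3:**
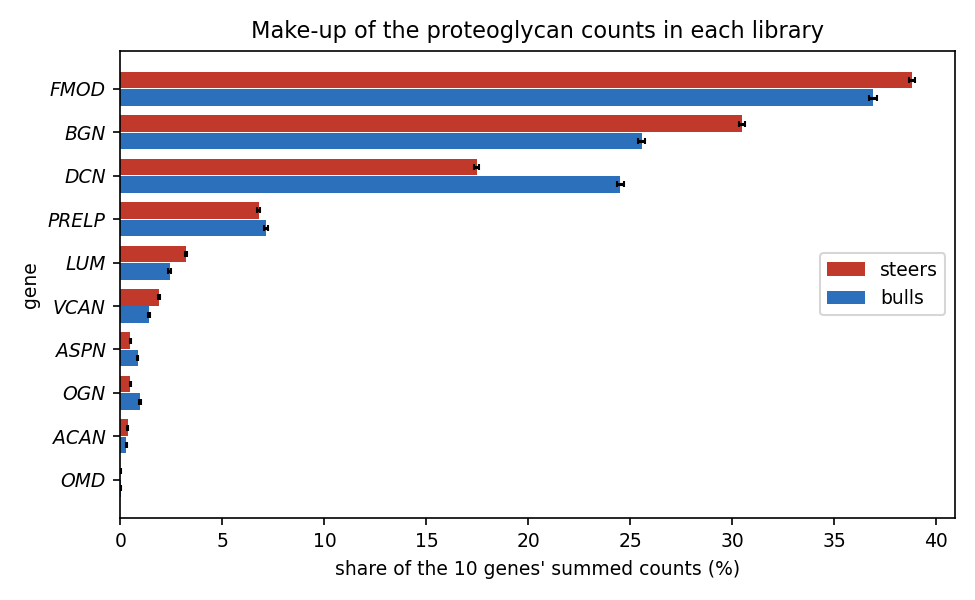
Share of each gene in the summed counts of the 10 proteoglycan genes (horizontal, percent), with a bar for each pooled library and the exact 95% binomial interval as a line at its end. DCN has the longer bar in bulls, 24.5% compared with 17.5%, and BGN in steers, 30.5% compared with 25.6%.

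A ratio of 2 genes within a library does not depend on how the libraries are scaled. There were 0.573 counts of DCN for each count of BGN in steers and 0.959 in bulls, and the log2 of the ratio of these ratios was -0.74 (counting interval -0.76 to -0.72). For DCN relative to LUM the ratio was 5.43 in steers and 10.2 in bulls, a log2 difference of -0.91 (-0.95 to -0.86). The interval included 0 for BGN relative to ACAN, at -0.01 (-0.14 to 0.11), and for LUM relative to VCAN, at -0.03 (-0.10 to 0.04). The widest contrast was that of OGN and VCAN, at -1.40 (-1.50 to -1.31). Of the 36 pairs without OMD, 34 had an interval that left out 0, which says only that counting error is small here.

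Many SLRP genes lie side by side in the genome. In the gene order of the RefSeq assembly ARS-UCD2.0, 7 of the 8 SLRP genes are in 3 runs of adjacent SLRP genes, and BGN is alone. Neighbours did not share 1 value. In the run EPYC, KERA, LUM and DCN, the log2FC was 1.14 for KERA (interval 1.07 to 1.22), 0.95 for LUM and 0.04 for DCN, and EPYC had 0 counts in steers against 1 in bulls. In the run OGN, OMD, ASPN and ECM2, the last gene stood at 0.61 (interval 0.54 to 0.68), while OGN and ASPN were below 0. The interval of OMD, from -1.26 to 1.01, includes 0 and also the value of ECM2. FMOD and PRELP, adjacent to each other, stood at 0.60 and 0.45, and OPTC beside them at -1.37 (interval -2.22 to -0.56) from 19 and 45 counts. The assembly differs from the build of the files and was used for gene order alone.

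**Figure D4:**
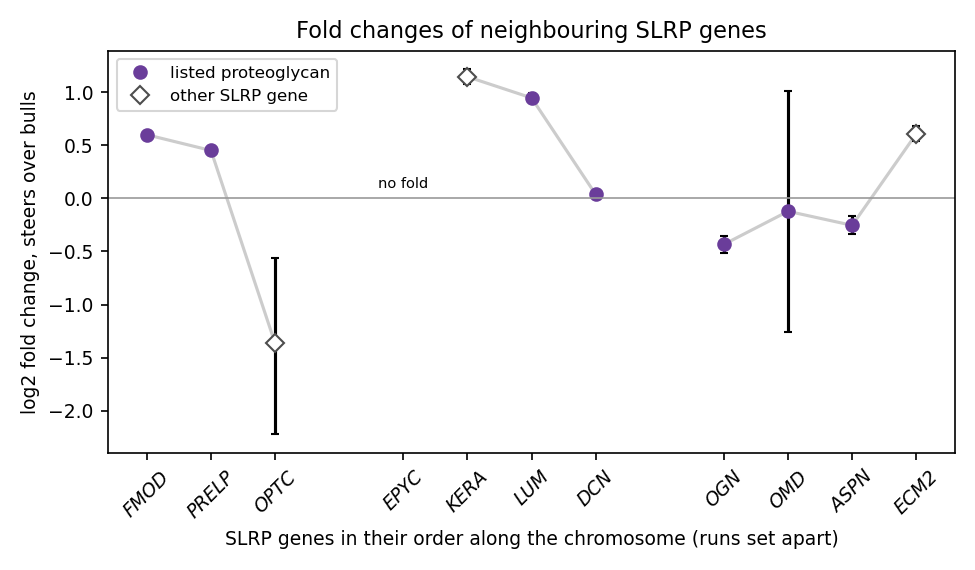
Log2FC, steers over bulls (vertical), of SLRP genes in their order along the chromosome, with 1 group of joined points for each run of adjacent genes. Circles are the listed proteoglycans, diamonds other SLRP genes, and bars 95% counting intervals. Within runs the values spread from 1.14 for KERA to 0.04 for DCN, and from 0.61 for ECM2 to -0.43 for OGN; EPYC has no fold.

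Other SLRP genes were examined as a list of 10, of which 8 had counts. Among them KERA, which encodes the keratan sulfate proteoglycan keratocan, was called upregulated with 5220 counts in steers against 2170 in bulls, although with total counts its log2FC of 0.90 is under the threshold. OPTC, which encodes opticin of the eye, was called downregulated from few counts. The most counts in the list were those of PODN, which encodes podocan, with 9103 and 5212 and a log2FC of 0.68 (interval 0.63 to 0.73). The median of the list was 0.61 over its 7 genes with enough counts for a fold, and 0.28 when EPYC was included with a prior of 0.5 counts.

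The sugar chains start from a linkage region on the core protein. Of 6 enzymes of this step with counts, 1 was called upregulated and 0 downregulated, and the median log2FC was 0.59. The called gene was B4GALT7, which adds the first galactose, with 382 counts in steers against 158 in bulls and a value of 1.15 (interval 0.88 to 1.43), which total counts lower to 0.91 and so under the threshold. FAM20B, the xylose kinase, was at 0.66 (0.41 to 0.91) and B3GAT3, which adds the glucuronic acid, at 0.31 (0.11 to 0.51). For enzymes that build and sulfate chondroitin and dermatan chains, 1 of 14 was called upregulated and 1 downregulated, with a median of 0.07. These were the sulfotransferase genes CHST13, with 13 counts in steers against 1 in bulls, and CHST11, with 6 and 35. The ratio for CHST13 was 11.9-fold from so few counts, with a log2 interval of 0.84 to 8.99. CHPF and DSE had the most counts of that list. CHPF, a chondroitin polymerase subunit, was at -0.23 (-0.34 to -0.12), and DSE, the dermatan sulfate epimerase, at 0.18 (0.04 to 0.32).

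Among 7 enzymes of keratan sulfate 0 were called upregulated and 0 downregulated by the exact binomial test, and their median was 0.09. In that list 4 genes had an unadjusted p under 0.05 in the exact binomial test. The edgeR exact tests could only call 0, since no fold change in the list passed 2 in either direction. B3GNT2, which extends the chain, was nearest to the threshold at -0.98 (-1.21 to -0.76) and passed it at -1.22 with total counts, and B4GALT1, a galactosyltransferase, was at 0.09 (-0.08 to 0.25). Supply of sulfate and sugar donors was likewise without calls over 8 genes (3 had an unadjusted p under 0.05 in the exact binomial test), with a median of 0.01. Here too no fold change passed 2, so the edgeR exact tests could only call 0. Of these 8 genes SLC35B2, a transporter of the sulfate donor, stood at 0.52 (0.40 to 0.64), and PAPSS1, which makes that donor, at -0.29 (-0.45 to -0.12). Over all 13 lists of proteoglycan biology, 12 of 119 genes were called upregulated and 11 downregulated.

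Versican and aggrecan bind hyaluronan, so the genes of that system were described beside VCAN and ACAN. HAPLN3, a link protein gene that can tie versican to hyaluronan, was called upregulated, with 1300 counts in steers against 467 in bulls, a log2FC of 1.35 (interval 1.20 to 1.51). HAPLN1, the link protein of cartilage, had 22 and 30 counts. Of 8 genes of hyaluronan synthesis and binding, TNFAIP6 was called upregulated at 1.02 (0.78 to 1.26) and the synthase HAS2 downregulated at -1.07 (-1.80 to -0.37), the latter from 27 and 52 counts. TNFAIP6 encodes a hyaluronan-binding protein of inflamed and remodelled matrix, and its call is lost with total counts, at 0.78, and with TMM factors. The receptor CD44 was at -0.31 (-0.38 to -0.23) and LYVE1, the receptor of lymphatic vessels, at -0.18 (-0.28 to -0.07). The median of these 8 genes was -0.24.

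Proteases that cut versican and aggrecan moved in both directions. Of 10 genes of proteases and their inhibitor, 1 was called upregulated and 3 downregulated, with a median of -0.34. ADAMTS5, an aggrecanase gene, had 69 counts in steers against 259 in bulls, a log2FC of -2.03 (interval -2.44 to -1.64). ADAMTS9, which cuts versican, had 569 and 195 counts and rose by 1.42 (1.19 to 1.66). ADAMTS8 had 0 counts in steers against 23 in bulls. With a floor of 3 counts set for the steers library and the bulls count taken as it stands it was at least 8.34-fold lower, and ADAMTS20, with 0 and 9 counts, at least 3.27-fold lower. The intervals, which hold the counting error of both libraries, allow less, up to a log2FC of -2.65 for ADAMTS8 and -1.10 for ADAMTS20. TIMP3, which inhibits aggrecanases, had the most counts of this list and stood at 0.49 (0.43 to 0.55), and ADAMTS1 at 0.22 (0.13 to 0.31).

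Breakdown of the chains in lysosomes and matrix showed 1 call among 14 genes, and a median of 0.01. NAGLU, an enzyme of heparan sulfate breakdown, had 226 counts in steers against 6 in bulls, a log2FC of 5.11 (interval 3.97 to 6.57). ARSB, which removes sulfate from dermatan and chondroitin chains, stood at 0.89 (0.76 to 1.02), and IDUA, which cuts dermatan sulfate, at 0.63 (0.53 to 0.74).

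Other proteoglycans of the matrix and the cell surface gave a reference for the 10 genes. Of 7 genes for secreted and basement membrane proteoglycans, 0 were called upregulated and 2 downregulated. The latter were SPOCK1, with 13 counts in steers against 67 in bulls, and SPOCK2, with 122 and 311, which encode testicans. HSPG2, which encodes perlecan of basement membranes, had 20206 and 11243 counts and a value of 0.72 (0.69 to 0.76), close to that of BGN. PRG4, which encodes lubricin of joints and gliding surfaces, had 17564 and 12355 counts and stood at 0.39 (0.35 to 0.42). At the cell surface GPC4, a glypican gene, was the 1 call among 10 genes, at 1.08 (0.72 to 1.45), a call lost at 0.84 with total counts. SDC3, a syndecan gene, was at 0.89 (0.77 to 1.00) and TGFBR3, the betaglycan gene, at -0.12 (-0.17 to -0.06).

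**Figure D5:**
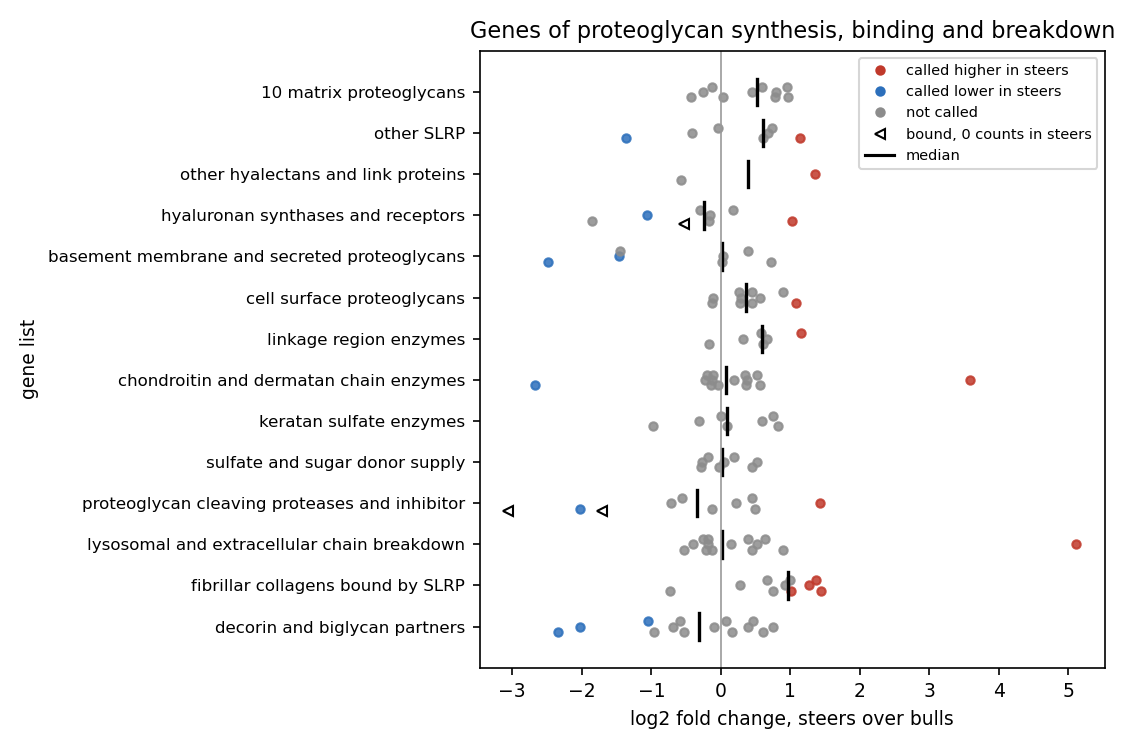
Log2FC, steers over bulls (horizontal), of each gene in 13 lists of proteoglycan biology and of the 10 listed proteoglycans, 1 point per gene, coloured by whether it was called. Triangles are bounds against a floor of 3 counts, and black bars are medians. The 10 genes have a median of 0.52, the linkage region enzymes 0.59, the collagens 0.96 and the binding partners of decorin and biglycan -0.31.

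SLRPs coat collagen fibrils, so the ratio of each gene to the summed counts of 10 collagen genes was taken in each library. The collagens had 1401891 counts in steers against 644696 in bulls, a log2FC of 1.00, and 4 of the 10 were called upregulated, namely COL1A1, COL3A1, COL5A1 and COL6A1. COL1A1, at 1.00, lost its call with total counts and with TMM factors. COL12A1 went the other way, with 30393 counts in steers against 46249 in bulls and a log2FC of -0.73 (interval -0.75 to -0.71). COL1A1, COL1A2 and COL3A1 held most of the sum in both libraries (71.2% in bulls), and the other 7 collagens together had a log2FC of 0.79. All 10 proteoglycans had a lower ratio to the collagen sum in steers than in bulls, 9 of them with a counting interval below 0. VCAN at -0.03 (-0.08 to 0.03) and LUM at -0.05 (-0.10 to -0.01) nearly kept pace with the collagens. BGN was at -0.22 (-0.23 to -0.21), FMOD at -0.40 (-0.41 to -0.39) and PRELP at -0.55 (-0.57 to -0.52). DCN was at -0.96 (-0.98 to -0.95) and OGN at -1.43 (-1.51 to -1.35), so that decorin counts per collagen count in steers were 0.513 times those in bulls. These ratios depend on the 3 collagens that held most of the sum. By log2FC, VCAN at 0.97 and LUM at 0.95 were above the other 7 collagens together, at 0.79. ACAN at 0.79 and BGN at 0.78 were near those 7.

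Decorin and biglycan also bind growth factors and receptors. Of 14 such genes, 0 were called upregulated and 3 downregulated, with a median of -0.31. TGFB1, a ligand that decorin binds, had 398 counts in steers against 756 in bulls and a value of -1.05 (-1.23 to -0.87). TLR2, a receptor of biglycan, was at -2.03 (-2.45 to -1.62), and its co-receptor CD14 at -2.34 (-2.48 to -2.21). Both TLR2 and CD14 are also expressed by myeloid cells. The endocytic receptor LRP1 had the most counts, 63517 and 42460, and stood at 0.46 (0.44 to 0.48), and TGFBR2 at 0.16 (0.10 to 0.22).

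Many cell types can make these proteoglycans, and marker genes of 10 of them were summed in each library. Fibroblast genes summed to 93545 CPM (counts of a gene relative to the library total) in steers and 54858 in bulls, with 2 of 13 called upregulated and a median of 0.55, and PDGFRA, a fibroblast receptor gene, at -0.48. COL1A1, COL1A2 and COL3A1, also in the collagen sum above, held 88.7% of these counts in steers and 84.7% in bulls. The other 10 genes summed to 10581 and 8373 CPM, a ratio of 1.26 in place of 1.71. With the size factors used for the proteoglycans, the sum of these other 10 fibroblast genes had a log2FC of 0.58. Tendon genes summed to 9113 and 16562 CPM, with 3 of 6 called downregulated and 1, KERA, upregulated. Of these COMP had 4459 counts in steers against 23516 in bulls, TNMD 58 and 696, CILP2 1026 and 3071 and THBS4 104300 and 133605. So FMOD and KERA were higher in steers while these 4 genes were lower. MKX, also in the tendon list, had 467 and 382 counts and a log2FC of 0.17 (interval -0.03 to 0.37). Cartilage genes summed to 4.26 and 21.9 CPM, with COL9A1, COL9A2, MATN1 and CYTL1 at 0 in both libraries and COL2A1 at 30 and 113 counts, and ACAN went the other way.

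Muscle genes summed to 2709 and 5295 CPM, with 1 of 11 called upregulated and 3 downregulated. Myeloid genes summed to 2623 and 8601, with 9 of 11 called downregulated, and T lymphocyte genes to 14.4 and 107, with 9 of 10 called downregulated. Adipocytes define the dissected tissue, and all 10 of their marker genes had counts. They summed to 3311 and 4074 CPM, with 2 of 10 called upregulated and 1 downregulated. Endothelial genes, at 876 and 1054, and pericyte and smooth muscle genes, at 587 and 880, had 0 calls by the exact binomial test among 10 and 7 genes, with 6 in each list at an unadjusted p under 0.05. The edgeR exact tests could only call 0 in both lists, since no fold change there passed 2. Neural and Schwann cell genes summed to 198 and 170, with 2 of 7 called upregulated. All these CPM sums rest on total counts, which place steers lower than size factors do. With size factors the median log2FC was -0.002 for adipocyte, -0.17 for endothelial and 0.02 for pericyte and smooth muscle genes. It was -0.67 for muscle, -1.79 for myeloid, -3.16 for T lymphocyte and 0.80 for neural genes. The part of any of these cell types in the values of the proteoglycan genes was not tested.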

How the data were processed

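The authors pooled RNA by group, sequenced it on an Ion Proton, removed adaptors and low-quality reads and aligned the rest with MapSplice to the bovine genome. The labels also list a human genome build, with no role given. How reads were counted, and whether by strand, is not given in the sources used here. The table as deposited holds unnormalized counts. Here size factors were the median of ratios (numpy 2.4.6). For each gene the 2 counts were set against the size factors by an exact binomial test (scipy 1.17.1, two-sided, as the doubled smaller tail, Benjamini-Hochberg over 17752 genes with a count). The test was tested on simulated data. Medians of lists use a prior of 0.5 counts. Ratios of 2 genes have a conditional exact interval up to 5000 counts and Woolf's interval above. The genes and lists were chosen with earlier results of these data known. Named are the 10 genes, the called genes of each list and the 2 others with the most counts, and neighbours of SLRP genes. B3GNT2, EPYC and the marker genes were chosen after their values were seen. Alternatives, with edgeR 4.0.16, are in the closing section. All 10 symbols matched RefSeq. The 4 miRNA libraries were not used here.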

Additional observations from a re-analysis of the deposited data

How the results depend on the processing

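With 1 library per group no replicate could be left out. No paired analysis was possible because the mRNA libraries are single pools and the replicate numbers of the labels belong to the miRNA libraries. The number of the 10 genes called was 0 in either direction under every scaling of the whole table, a filter of 10 counts in each library, assumed coefficients of variation of 0.1, 0.2 and 0.4 in an edgeR exact test, and the threshold on fold alone. Only the scalings could have changed this. The filter, the assumed variation and the threshold on fold alone leave each fold change as it was, under 2. The adjusted p alone gave 7 upregulated and 2 downregulated by the exact binomial test, and in the other lists 54 and 28. The median of the 10 genes was 0.29 with total counts and 0.39 with total counts without the genes of highest count, against 0.52. In the other lists 12 genes were upregulated and 11 downregulated. Total counts left 7 upregulated, with TNFAIP6, KERA, B4GALT7, GPC4 and COL1A1 lost and B3GNT2 and WISP1 newly downregulated, total counts without the genes of highest count lost TNFAIP6, GPC4 and COL1A1 and also added B3GNT2 and WISP1, TMM factors lost TNFAIP6 and COL1A1, and the upper quartile added COL6A2. A coefficient of variation of 0.2 left 6 and 7, and one of 0.4 left 1 and 0 by the edgeR exact test. Over all genes total counts moved the upregulated share of calls from 35.0% to 21.2%, and one of 0.4 left 52 and 93 calls. Scaling to summed collagens, chosen after seeing the data, turned the median of the 10 genes to -0.47, with 2 of them, ASPN and OGN, downregulated, and in the other lists 1 upregulated and 50 downregulated, which follows from its construction, since the collagen sum is itself higher in steers. Depth limits OMD, and the number of animals limits every value.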
